A study of Mus musculus with 20 samples.

Results

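H3K4me1, the monomethyl mark on lysine 4 of histone H3, was compared between the WT and the Tet2 Knockout (Tet2-/-) library of Lin- bone marrow cells. The 107392 peaks of WT and the 98069 peaks of Tet2-/- cells were merged into 122182 regions. A separate merge of all 4 H3K4me1 libraries of the series gave 136477 regions. A merged region was lost if no Tet2-/- peak overlapped it by at least 1 bp, gained if no WT peak did, and otherwise retained. By this rule 27717 regions were lost, 25274 were gained, and 69191 were retained. Lost regions made up 22.7% and gained regions 20.7% of the merged regions. Of all WT regions 28.6% were lost (95% interval 28.3 to 28.9), and of all Tet2-/- regions 26.8% were gained (26.5 to 27). Intervals are 95% exact Clopper-Pearson intervals over regions, and they cover counting error alone.

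The study asked how the loss of p300 acts on hematopoietic cells that lack Tet2, and this pair of libraries shows the state of the enhancer mark with and without Tet2 while Ep300 is intact. Lin- cells are what remains of bone marrow after cells with surface markers of mature lineages are taken out, a fraction enriched for stem cells and progenitors, with a stated purity above 80%. WT mice were Ep300 fl/fl, and Tet2-/- mice were Ep300 fl/fl with both Tet2 alleles disrupted in every tissue from the germline. Neither carried Cre. A second pair of genotypes, used below as separate libraries, carried Mx1-Cre, which is induced by interferon in blood cells and in other tissues. It comprised Mx1-Cre;Ep300 fl/fl (Ep300Δ/Δ, labelled p300 Knockout) and Mx1-Cre;Ep300 fl/fl;Tet2-/- mice (Ep300Δ/ΔTet2-/-). All 4 genotypes were on the C57BL/6 background and received 3 intraperitoneal doses of poly(I:C), an inducer of interferon, from 6 to 8 weeks of age. Mice of both sexes were used in the study. The sources do not give the sex, the number of pooled mice, or the age at harvest for each library. Each genotype and mark has 1 library, so the variation among animals is unknown and no P values are given.

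H3K4me1 is laid down mainly by the methyltransferases Kmt2c and Kmt2d at enhancers and around active promoters. Enhancers that carry it without H3K27ac are called poised or primed, and those that carry both are called active. Tet2 oxidizes 5-methylcytosine in CpG dinucleotides, a step toward the removal of DNA methylation, and it acts at enhancers of blood cells among other places. TET2 is often mutated in clonal hematopoiesis and in myeloid malignancies.

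The lists differed in shape. Tet2-/- peaks were fewer but wider, with a median width of 506 bp against 426 bp in WT, and they covered 69.8 Mb against 64.9 Mb. More than 1 WT peak fell in 13.1% of the retained regions, and more than 1 Tet2-/- peak in 4.91%. Some peaks exceeded the stated q threshold of 0.05, namely 1.79% of those in WT and 0.532% of those in Tet2-/- cells. Sequencing depth is unknown from peak lists, and its part in the number of peaks was not tested. Fold enrichments below are the authors' values over the H3 library and were compared within 1 list only. All 15 stem cell factor genes examined below had H3K4me1 regions, whereas 5 of the 8 genes of other tissues had none. The T cell marker Cd3e and the B cell markers Cd79a and Vpreb1 also had none.

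The regions outside promoters that stood highest in their own list show what a lost or gained region looked like. The 5 highest lost regions had fold enrichments of 10.3 to 13 in WT, and the 5 highest gained regions had 13 to 14.2 in Tet2-/- cells. Sequences span 100 bases on either side of the summit of the strongest peak, from RefSeq GRCm38.p6 (mm10 coordinates), on the plus strand, with CpG dinucleotides in capitals. The first 2 lines are lost regions and the next 3 are gained regions.
Homer1 intron, lost, chr13:93380778-93380978: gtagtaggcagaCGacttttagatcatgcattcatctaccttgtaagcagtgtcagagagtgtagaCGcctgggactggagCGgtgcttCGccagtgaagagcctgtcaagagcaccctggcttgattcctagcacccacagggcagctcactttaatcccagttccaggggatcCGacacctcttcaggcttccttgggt
Vps13c intron, lost, chr9:67897126-67897326: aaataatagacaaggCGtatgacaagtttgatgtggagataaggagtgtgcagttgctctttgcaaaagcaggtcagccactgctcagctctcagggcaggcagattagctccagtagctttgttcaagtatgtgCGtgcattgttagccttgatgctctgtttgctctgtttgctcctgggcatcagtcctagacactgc
Map3k5 intron, gained, chr10:20040839-20041039: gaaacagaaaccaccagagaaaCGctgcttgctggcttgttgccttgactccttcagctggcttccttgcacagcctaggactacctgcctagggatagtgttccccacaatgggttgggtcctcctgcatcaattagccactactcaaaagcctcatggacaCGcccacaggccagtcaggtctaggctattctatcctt
Ccnf intergenic region, gained, chr17:24260321-24260521: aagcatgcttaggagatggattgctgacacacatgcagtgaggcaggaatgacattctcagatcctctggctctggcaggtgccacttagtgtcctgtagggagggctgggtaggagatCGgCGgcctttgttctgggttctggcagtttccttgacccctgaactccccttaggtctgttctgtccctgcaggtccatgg
Atp2b1 intron, gained, chr10:98949020-98949220: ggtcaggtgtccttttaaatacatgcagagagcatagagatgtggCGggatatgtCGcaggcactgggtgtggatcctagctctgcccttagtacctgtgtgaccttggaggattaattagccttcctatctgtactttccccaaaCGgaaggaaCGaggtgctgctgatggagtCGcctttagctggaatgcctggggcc

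The highest lost region, with a fold enrichment of 13 in WT, lay in an intron 72500 bp from the start of Homer1, which encodes a synaptic scaffold protein. Ep300Δ/Δ and Ep300Δ/ΔTet2-/- cells both had a peak there, so the region was without a call in Tet2-/- cells alone of the 4 genotypes. The lost region in an intron 56272 bp from the start of Vps13c, a lipid transfer protein, was called in WT alone (fold 10.4). Others of this group lay 151296 bp from Tbc1d2b (fold 10.6) and 67565 bp from AC117239.2 (fold 10.3). The highest gained region (fold 14.2 in Tet2-/- cells) lay 58410 bp from the start of Map3k5, a kinase of stress signaling, and was called in both other genotypes as well. The gained region 8167 bp from Ccnf, a cyclin F gene, was 979 bp wide (fold 13.6) and was the only one of these 10 with an H3K27ac peak, which was in Tet2-/- cells alone. The gained region 33484 bp from Atp2b1, a plasma membrane calcium pump, had a peak in Ep300Δ/Δ but not in Ep300Δ/ΔTet2-/- cells (fold 13.6). The remaining pair lay near Pdss2 (fold 13.9) and Rnf19b (fold 13). Of the 5 highest gained regions, all 5 had a peak in Ep300Δ/Δ cells and 4 in Ep300Δ/ΔTet2-/- cells. Of the 5 highest lost regions, 3 had one in Ep300Δ/Δ and 2 in Ep300Δ/ΔTet2-/- cells.

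Most lost and gained regions were narrow and weak. The median width was 290 bp for lost, 325 bp for gained, and 715 bp for retained regions. Within the WT list, the median fold enrichment was 3.92 in lost regions and 5.01 in retained regions. Within the Tet2-/- list, it was 4.45 in gained and 5.47 in retained regions. When WT regions were ranked by fold enrichment and cut into 4 equal parts, 7.07% of the strongest part were lost (6.75 to 7.4). The share rose to 24.5%, 37.9%, and 44.9% in the following parts. Gains over WT followed the same order, with 8.55% of the strongest part of the Tet2-/- list gained (8.2 to 8.92), then 24.3%, 35.3%, and 38.9%. A change was therefore most often seen where the peak was weak in its own list, on both sides of the comparison.

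**Figure D1:**
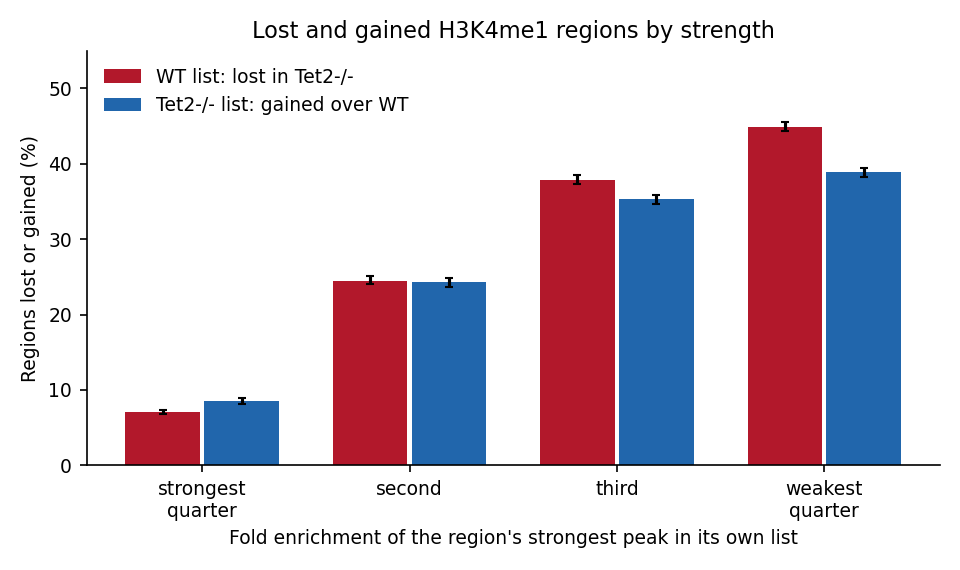
Share of WT regions that were lost (red) and of Tet2-/- regions that were gained (blue), in percent, by part of the own list ranked on fold enrichment, from the strongest to the weakest 25% of regions; bars start at 0 and lines are 95% Clopper-Pearson intervals. The share rose from 7.07% to 44.9% for losses and from 8.55% to 38.9% for gains.

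Many calls were also near a peak of the other list. A peak of Tet2-/- cells lay within 1000 bp of 48.9% of the lost regions (48.3 to 49.5), and a WT peak lay within 1000 bp of 46.4% of the gained regions (45.8 to 47.1). The median distance to it was 1.06 kb for lost and 1.23 kb for gained regions. At the border of the rule, 115 retained regions rested on an overlap of 50 bp or less, whereas 382 lost and 241 gained regions had a peak of the other list within 50 bp. The median overlap in retained regions was 453 bp.

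The libraries of Ep300Δ/Δ and Ep300Δ/ΔTet2-/- cells took no part in making the classes, and they also differ by Tet2. Compared with each other by the same rule, they gave 22139 lost (20% of 110521 merged regions) and 26082 gained regions (23.6%), so gains outnumbered losses there, in contrast to the pair of WT and Tet2-/- cells. The order in the main pair depended on the lists, however. Losses were the more numerous when 500 bp gaps counted as shared (18143 lost and 16969 gained), with an overlap of 50% (28433 and 25992), and with a q below 0.05 (26914 and 25696). Restricting both lists to −log10 q values of 5 or more gave 13953 lost and 26991 gained regions, and lists of equal size (98069 peaks) gave 22759 and 28693. Among the 27717 regions lost from WT to Tet2-/-, 4429 had a peak in Ep300Δ/Δ and none in Ep300Δ/ΔTet2-/- cells, and 3389 had the reverse. Among the 25274 gained regions, the order was the opposite, with 2996 in Ep300Δ/Δ alone and 4975 in Ep300Δ/ΔTet2-/- alone. Retained regions gave 5528 and 7430.

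Expressed as shares of the regions called in only 1 of those genotypes, Ep300Δ/Δ alone accounted for 56.7% in lost (55.5 to 57.8), 42.7% in retained (41.8 to 43.5), and 37.6% in gained regions (36.5 to 38.7). Losses and gains thus leaned the same way in separate libraries, and retained regions lay between. The split also varied with the strength of the peak. In the strongest part of the WT list, 19.8% of the lost regions were called in Ep300Δ/Δ alone and 12.7% in Ep300Δ/ΔTet2-/- alone, and in the weakest part 14.8% and 12.1%. In the strongest part of the Tet2-/- list, 22.1% of the gained regions were called in Ep300Δ/ΔTet2-/- alone and 11.9% in Ep300Δ/Δ alone, and in the weakest part 18.9% and 11.3%. Retained regions of the strongest part of the Tet2-/- list had 6.67% and 3.89%, and those of the weakest part 14% and 11.4%, so for gains the split at strong peaks was near that of retained regions. Even so, 55.2% of the lost and 47% of the gained regions had no peak in either of the other genotypes, compared with 11.3% of the retained regions.

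Lost regions lay at promoters more often than gained regions did. A region was at a promoter if it overlapped the 3000 bp before or after any transcript start, and other regions were placed by their middle. Promoters held 40.3% of lost (39.7 to 40.9), 34% of gained (33.5 to 34.6), and 44.3% of retained regions (43.9 to 44.7). Introns held 35.2% of lost and 38.8% of gained regions, and intergenic sequence held 21.3% and 24.6%. Exons held 3.23% and 2.61%. Counted the other way, 26.7% of the WT regions at promoters were lost and 21.9% of the Tet2-/- regions there were gained, whereas outside promoters both shares were near 30% (30% and 30.2%). The same order was seen from Ep300Δ/Δ to Ep300Δ/ΔTet2-/- cells, where 42% of the lost and 37.2% of the gained regions lay at promoters. The median distance to the nearest transcript start was 4.81 kb for lost, 6.4 kb for gained, and 4.05 kb for retained regions.

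Acetylation was rare in lost and gained regions and more frequent in retained ones. H3K27ac marks active enhancers and promoters, and it was called in WT in 9.09% of lost (8.76 to 9.44), 4.7% of gained (4.45 to 4.97), and 23.7% of retained regions (23.4 to 24). In Tet2-/- cells the shares were 6.38% (6.09 to 6.67), 5.02% (4.76 to 5.3), and 18.8% (18.5 to 19.1). Lost regions were thus acetylated more often in WT than in Tet2-/- cells, whereas the intervals of both genotypes overlapped in gained regions. That overlap rests on the longer WT list of H3K27ac, since lists of equal size gave 4.07% (3.83 to 4.32) in WT and 5.02% in Tet2-/- cells for gained regions. The contrast in lost regions narrowed with those lists, to 7.66% (7.35 to 7.98) in WT and 6.38% in Tet2-/- cells. With the lists as deposited, retained regions also had the higher share in WT. Neither genotype had an H3K27ac peak in 89.9% of lost and 93.4% of gained regions, so most of them changed as H3K4me1 calls without acetylation. The same was true of 72.6% of retained regions. Retained regions were also wider, with a median of 715 bp against 290 bp in lost and 325 bp in gained regions. A wider region can overlap a peak more easily, and the part of width in these shares was not tested.

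The classes also differed in the regions acetylated in 1 genotype alone. Over all merged regions, 6.04% had H3K27ac in WT alone and 2.72% in Tet2-/- cells alone, which sets the background, since the WT list of H3K27ac is the longer one (29659 against 24539 peaks). In lost regions 1039 were acetylated in WT alone and 286 in Tet2-/- alone, a ratio of 3.63. In gained regions 401 were acetylated in WT alone and 482 in Tet2-/- alone, a ratio of 0.832. Retained regions had 5938 and 2556, a ratio of 2.32. With both H3K27ac lists cut to their strongest 24539 peaks, an alternative chosen after the values were seen, the ratios were 2.04, 0.546, and 1.17 in the same order. The lost regions stayed above and the gained regions below the retained regions. The ratio in lost regions was 5.24 outside promoters and 2.91 at promoters, in retained regions 2.54 and 2.11, and in gained regions 0.86 and 0.806. Lost regions of the strongest part of the WT list had H3K27ac in 14.7% in WT (13.1 to 16.5) and 6.83% in Tet2-/- cells (5.68 to 8.13), and those of the weakest part in 8.08% and 6.69%.

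**Figure D2:**
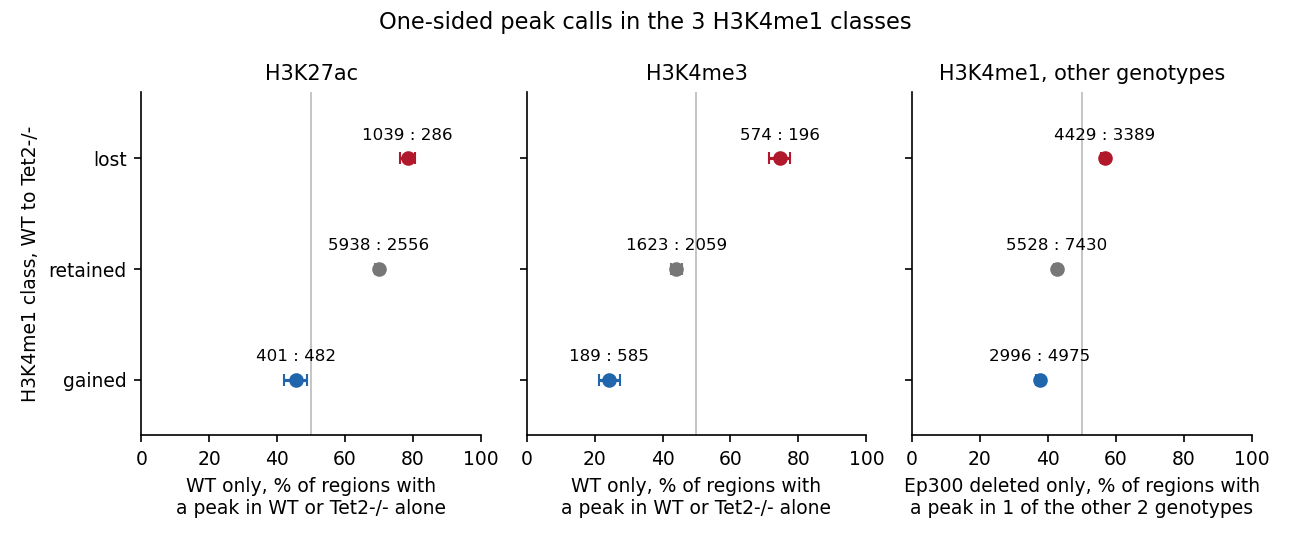
Among regions with a peak in 1 genotype alone, the share in percent that had it in WT (H3K27ac, H3K4me3) or in Ep300Δ/Δ cells (H3K4me1 of the other genotypes), for gained, retained, and lost regions; points are shares, lines are 95% Clopper-Pearson intervals, and the numbers are the counts on either side. In each panel lost regions lie to the right of retained and gained regions to the left, for H3K27ac at 78.4%, 69.9%, and 45.4%.

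Outside promoters, 466 regions lost H3K4me1 and were acetylated in WT alone, and 229 gained H3K4me1 and were acetylated in Tet2-/- cells alone. The 466 regions were nearest to 427 protein-coding genes, with 4 regions at Lrrc8c, a subunit of volume-regulated anion channels, and 3 at Kcnrg, a potassium channel regulator. The highest lay 18833 bp from Spire1 (fold 10.3), 22735 bp from Rassf3 (fold 8.68), and 23227 bp from Ap2a2 (fold 8.22), a subunit of the clathrin adaptor AP-2. Next came regions near Fgf1, a fibroblast growth factor (fold 8.12), and Arhgap26 (fold 8.09). Of the 229 gained regions, the strongest after that near Ccnf lay in an intron 65390 bp from Bcl2l11 (fold 10.8), which encodes the proapoptotic protein Bim. Bcl2l11 was also the nearest gene of 2 of the 466 lost regions. Others lay 32958 bp from Bmp2k (fold 10.5), 9539 bp from Ank3 (fold 9.51), and 10520 bp from Foxp1 (fold 8.91), a transcription factor of lymphoid and other lineages. These genes were named after their values were seen.

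The other genotypes gave a mixed account of these active regions. Of the 466 lost ones, H3K4me1 was called in Ep300Δ/Δ alone in 125, in Ep300Δ/ΔTet2-/- alone in 59, in both in 114, and in neither in 168. H3K27ac was called in Ep300Δ/Δ alone in 31 and in Ep300Δ/ΔTet2-/- alone in 29, and 394 had it in neither. Retained regions outside promoters with H3K27ac in WT alone had H3K4me1 in Ep300Δ/Δ alone in 149 and in Ep300Δ/ΔTet2-/- alone in 235, and H3K27ac in 465 and 170. Hence the methylation calls of the lost regions leaned toward Ep300Δ/Δ where those of retained regions did not, and their acetylation calls were close to even. Of the 229 gained regions, H3K4me1 was called in Ep300Δ/Δ alone in 27 and in Ep300Δ/ΔTet2-/- alone in 52, and H3K27ac in 6 and 28. Retained regions with H3K27ac in Tet2-/- alone gave 51 and 107 for H3K4me1, a similar split, and 87 and 147 for H3K27ac.

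H3K4me3, the mark of active promoters, moved with the classes too. In lost regions 574 had H3K4me3 in WT alone and 196 in Tet2-/- alone, and in gained regions 189 and 585. Retained regions had 1623 and 2059. At promoters the counts were 383 and 141 in lost and 125 and 373 in gained regions. Most H3K4me3 at lost and gained promoters was nevertheless called in both genotypes, in 30.8% of the lost and 24% of the gained promoter regions, so H3K4me1 changed there at promoters that kept H3K4me3.

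Lost regions were richer in CpG than gained regions. The window of 100 bp on either side of the summit held 3.88 ± 3.78 CpG dinucleotides in lost (SD over 27717 regions), 3.04 ± 2.65 in gained, and 3.65 ± 3.28 in retained regions. GC content was 52.1%, 50.6%, and 52.7%. In windows without CpG, 22% of the merged regions were lost and 25.2% were gained. With 12 or more CpG, 32.6% were lost (31.2 to 34) and 9.28% were gained (8.43 to 10.2). Outside promoters the same windows gave 22.8% and 26.7% without CpG, and 27.9% (24 to 32) and 14.6% (11.7 to 18) with 12 or more. Among windows of 50 to 55% GC, the lost share rose from 20.5% to 34.7% (27 to 43), but the gained share was 21.5% without CpG and 21.1% (14.8 to 28.6) with 12 or more. Between these ends the gained share was lower, at 18.2% (17.1 to 19.3) with 6 to 8 CpG. At matched GC, then, the rise of the losses was there. The gains fell slightly up to that point, and the fall did not continue to the highest CpG content.

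The rise of losses with CpG was not found in the other pair. From Ep300Δ/Δ to Ep300Δ/ΔTet2-/- cells, the lost share was 22.4% without CpG, 17.3% with 9 to 11, and 19.7% (18.6 to 21) with 12 or more. The gained share fell from 26% to 17% (15.8 to 18.1), but in windows of 50 to 55% GC it was 25.8% without CpG and 34.3% (27.3 to 41.8) with 12 or more. Mean CpG was 3.56 in lost and 3.45 in gained regions of that pair, and GC content was 51.1% and 51.4%. GC content was thus lower in gained than in lost regions from WT to Tet2-/- and slightly higher in the other pair, and its part in the CpG trend was not tested beyond the matched windows.

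**Figure D3:**
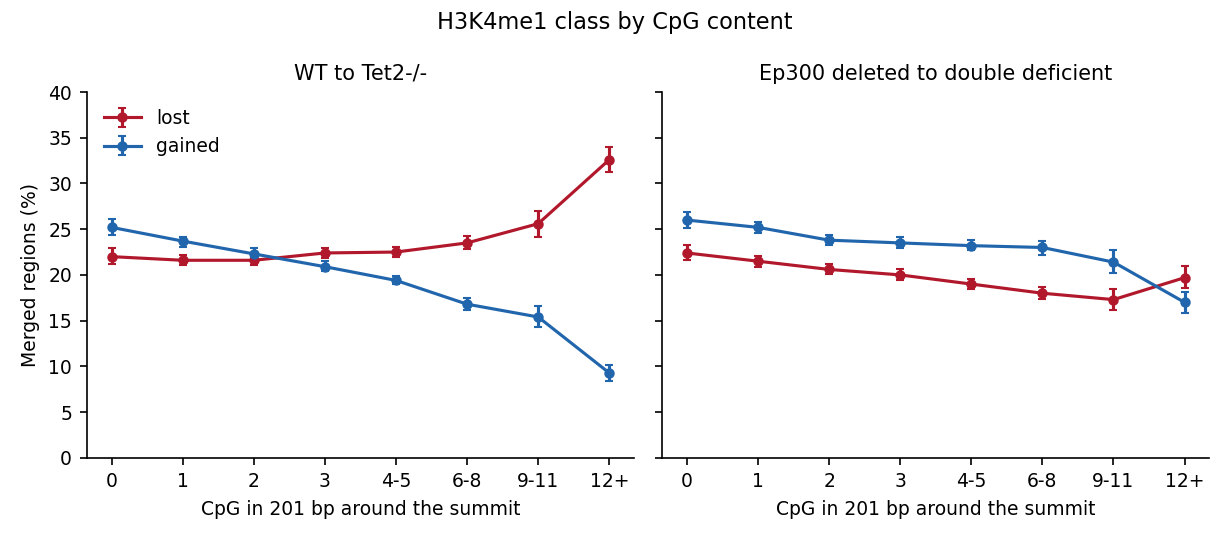
Lost (red) and gained (blue) shares of the merged regions, in percent, by the number of CpG dinucleotides within 100 bp of the summit, for WT to Tet2-/- (left) and for Ep300Δ/Δ to Ep300Δ/ΔTet2-/- cells (right); lines through points are 95% Clopper-Pearson intervals. On the left losses reach 32.6% and gains fall to 9.28% at 12 or more CpG, and on the right losses stay between 17.3% and 22.4%.

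Short consensus motifs of blood transcription factors were searched on both strands in the same windows. A PU.1 motif (GAGGAAGT) was in 2.49% of gained (2.3 to 2.69), 1.81% of lost (1.66 to 1.98), and 2.09% of all regions. A RUNX motif (TGTGGTT) was in 6.43%, 4.8%, and 5.49%, and an IRF motif (AANNGAAA) in 15.8%, 13.6%, and 13.6%. MYB (TAACNG) was in 19.1% of gained, 17.9% of lost, and 17.8% of all regions, and NF-Y (CCAAT) in 22%, 20%, and 20.4%. These 5 were more frequent in gained than in lost regions. The E-box CAGGTG was less frequent, in 18.4% of gained, 20.5% of lost, and 20.4% of all regions, and so was KLF (CCACACCC), with 2.45%, 2.83%, and 2.75%, where the intervals of gained and lost regions touched. The windows of gained regions also had a lower GC content than those of lost regions (50.6% and 52.1%). Motif shares were not matched for GC, and its part in them was not tested.

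The motif AGATAA, which is bound by factors of the GATA family, was in 8.33% of gained (7.99 to 8.68), 7.87% of lost (7.55 to 8.19), and 7.57% of all regions, so these intervals overlapped. With 250 bp on either side of the summit, the difference between gained and lost regions was −0.0841 percentage points, so its direction depended on the window. With 100 bp on either side, the intervals of gained and lost regions overlapped for CEBP (TTGCNNAA, 7.65% and 7.34%, all regions 7.15%), AP-1 (TGANTCA, 6.2% and 5.77%, all 5.83%), and ETS (CCGGAAGT, 0.293% and 0.4%, all 0.335%). The same held for CTCF, by its consensus, with 0.15% and 0.101% (all 0.124%). With 250 bp the intervals were separate for CEBP (20.6% of gained and 19.6% of lost regions), AP-1 (15.4% and 14.3%), and ETS (0.649% and 0.895%), but not for CTCF. In the other pair, with 100 bp on either side, PU.1 was again more frequent in gained (2.65%) than in lost regions (1.87%). RUNX differed less (5.82% and 5.41%), IRF stood at 14.9% in each, and GATA was more frequent in lost (9.51%) than in gained regions (7.64%). Of the 12 motifs, PU.1 had the same order and separate intervals in both pairs in this window, and with 250 bp on either side RUNX, IRF, and the E-box did as well. The PU.1 and ETS motifs share GGAAGT. A match is a stretch of letters, and binding was not measured.

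Chromosome X stood apart. Of its Tet2-/- regions 43.9% were gained (41.1 to 46.7), while the 19 autosomes ranged from 23.2% on chromosome 15 to 30.9% on chromosome 13. Of its WT regions 35.5% were lost (32.6 to 38.4), against 25.6% on chromosome 11 to 32.1% on chromosome 13. Gains on the X outnumbered losses, 536 to 377, although losses outnumbered gains on every autosome with the lists as deposited. From Ep300Δ/Δ to Ep300Δ/ΔTet2-/- cells 54.7% of the X regions were gained (51.7 to 57.7), and the autosomes ranged from 26.6% to 32.8%. The X held 1.05% of the H3K4me1 peaks in WT, 1.28% in Tet2-/-, 0.884% in Ep300Δ/Δ, and 1.2% in Ep300Δ/ΔTet2-/- cells. For H3K4me3 the shares were 2.91% in WT and 2.89% in Tet2-/- cells. No H3K4me1 peak lay on chromosome Y, and H3K4me3 peaks there numbered 7 in WT, 7 in Tet2-/-, 1 in Ep300Δ/Δ, and 6 in Ep300Δ/ΔTet2-/- cells. H3K27ac peaks on the Y numbered 4 in each genotype but Ep300Δ/Δ, which had 0, so the Ep300Δ/Δ libraries stood apart there. The sex of the mice is not given for each library, and its part was not tested.

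Lost and gained regions shared many nearest genes. By the nearest protein-coding start, lost regions belonged to 9942 genes and gained regions to 9303, and 6481 genes had both, or 65.2% of the former and 69.7% of the latter. A single lost region was found at 4145 genes, and 10 or more at 349. The genes with the most lost regions were Pde4d (32), which degrades cAMP, Map4k4 (31), a kinase upstream of JNK signaling, Plcl2 (28), Asap1 (27), an Arf GTPase-activating protein, and the tied genes Igf1r, Jarid2, and Runx1 (26 each). The genes with the most gained regions were Pde4d (41), Arid1b (35), a subunit of the BAF chromatin remodeler, Bach2 (35), a transcriptional repressor of lymphoid cells, Jarid2 (35), a cofactor of Polycomb repressive complex 2, and Runx1 (34), a master regulator of blood development. Pde4d, Jarid2, and Runx1 thus stood in both orders. These are counts, and as a share of the gene's own regions losses came to 23.9% at Pde4d, 23.2% at Igf1r, 21.4% at Asap1, 21.8% at Jarid2, and 16.8% at Runx1, against 22.7% of all regions. It was higher at Map4k4 (47.7%) and Plcl2 (38.4%). Gains came to 37.2% at Bach2, 34.3% at Arid1b, 30.6% at Pde4d, 29.4% at Jarid2, and 21.9% at Runx1, against 20.7% of all regions. Jarid2 had 4 lost and 5 gained regions and Runx1 had 11 and 15 by the nearest start of any gene, coding or not.

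Other genes were one-sided by this assignment, and these were picked after their values were seen. Map4k4 had 31 lost, 4 gained, and 30 retained regions. Cmip had 20 lost and 1 gained, Map3k1, a kinase of the MAP kinase cascade, had 23 lost and 6 gained, Arsg, a lysosomal sulfatase, had 17 lost and 1 gained, and Retreg1, a receptor for turnover of the endoplasmic reticulum, had 19 lost and 3 gained. On the other side, Arid1b had 12 lost and 35 gained, Bach2 13 and 35, Slco3a1, an organic anion transporter, 2 and 24, 2010111I01Rik 8 and 30, and Sipa1l1, a Rap GTPase-activating protein, 9 and 29. From Ep300Δ/Δ to Ep300Δ/ΔTet2-/- cells Map4k4 had 11 lost and 10 gained regions, Cmip 8 and 12, Map3k1 12 and 10, Arsg 7 and 4, and Retreg1 5 and 11. There Arid1b had 20 lost and 31 gained, Slco3a1 7 and 15, Sipa1l1 5 and 26, Bach2 17 and 18, and 2010111I01Rik 11 and 9. By the nearest start of any gene, Map3k1 had 2 lost and 3 gained regions, so its excess rests on the assignment to coding genes, and the other 9 genes kept the direction of their excess. Gains at Arid1b, Slco3a1, and Sipa1l1 were thus also the more numerous in the separate pair, with 63, 32, and 38 retained regions. Over all regions of that pair gains were the more numerous as well (23.6% gained and 20% lost). Losses exceeded gains there by a few regions at Map4k4, Map3k1, and Arsg, and gains exceeded losses at Cmip and Retreg1.

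Most lists of genes of blood lineages were near the background of 22.7% lost and 20.7% gained. The 15 stem cell factors had 677 regions, of which 141 were lost (20.8%, 17.8 to 24.1) and 142 gained (21%, 18 to 24.2). Within the list, Kit, the receptor for stem cell factor, had 23 lost and 13 gained regions. Myc had 23 lost and 16 gained, Gata2, a factor required by stem cells, had 7 and 1, and Myb had 10 and 5. In contrast, Meis1, a Hox cofactor, had 10 lost and 22 gained, Fli1, an Ets factor, 3 and 13, Cd34, a surface marker of progenitors, 2 and 9, and Runx1 26 and 34. By the nearest start of any gene, Myc had 0 lost and 2 gained regions and Meis1 had 0 of each. More losses than gains were counted at 8 of the 15 genes and more gains at 5. From Ep300Δ/Δ to Ep300Δ/ΔTet2-/- cells the direction was the opposite at Kit (10 lost and 12 gained), Gata2 (0 and 5), Myb (6 and 11), Fli1 (9 and 7), Cd34 (7 and 6), and Runx1 (29 and 25), and the same at Myc (19 and 10) and Meis1 (14 and 22). In the other pair the list had 115 lost (18.4%) and 130 gained (20.8%) of 624 regions.

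The 18 granulocyte and monocyte genes had 49 lost and 49 gained of 237 regions (20.7% each, 15.7 to 26.4). Klf4, a monocyte regulator, had 12 lost and 14 gained, Gfi1, a repressor needed for neutrophils, 8 and 6, Irf8, a factor of monocytes and dendritic cells, 7 and 4, and Mpo, the myeloperoxidase of granules, 1 and 4. Lyz2, the lysozyme of myeloid cells, had 4 gained and no lost region. By the nearest start of any gene, Klf4 had 2 lost and 0 gained regions and Gfi1 had 1 of each. Acetylation in these regions was one-sided, with 29 regions acetylated in WT alone, 3 in Tet2-/- alone, and 28 in both, where the background over all merged regions was 6.04% and 2.72%. Irf8 contributed 7 of the 29, and Gfi1 and Itgam, the CD11b gene, 4 each. Most other gene lists also had more regions acetylated in WT alone than in Tet2-/- alone. Stem cell factors had 45 and 24, B cell genes 19 and 6, and erythroid genes 13 and 5. Interferon response genes had 2 and 3, and megakaryocyte genes 2 and 2. From Ep300Δ/Δ to Ep300Δ/ΔTet2-/- cells the granulocyte and monocyte list had 20 lost (10.3%, 6.41 to 15.5) and 64 gained (33%, 26.4 to 40.1) of 194 regions, against 20% and 23.6% of all regions. By the nearest start of any gene, 20.5% were lost and 15% gained from WT to Tet2-/- cells, so the even split rests on the assignment to coding genes. The difference between the pairs was not tested.

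**Figure D4:**
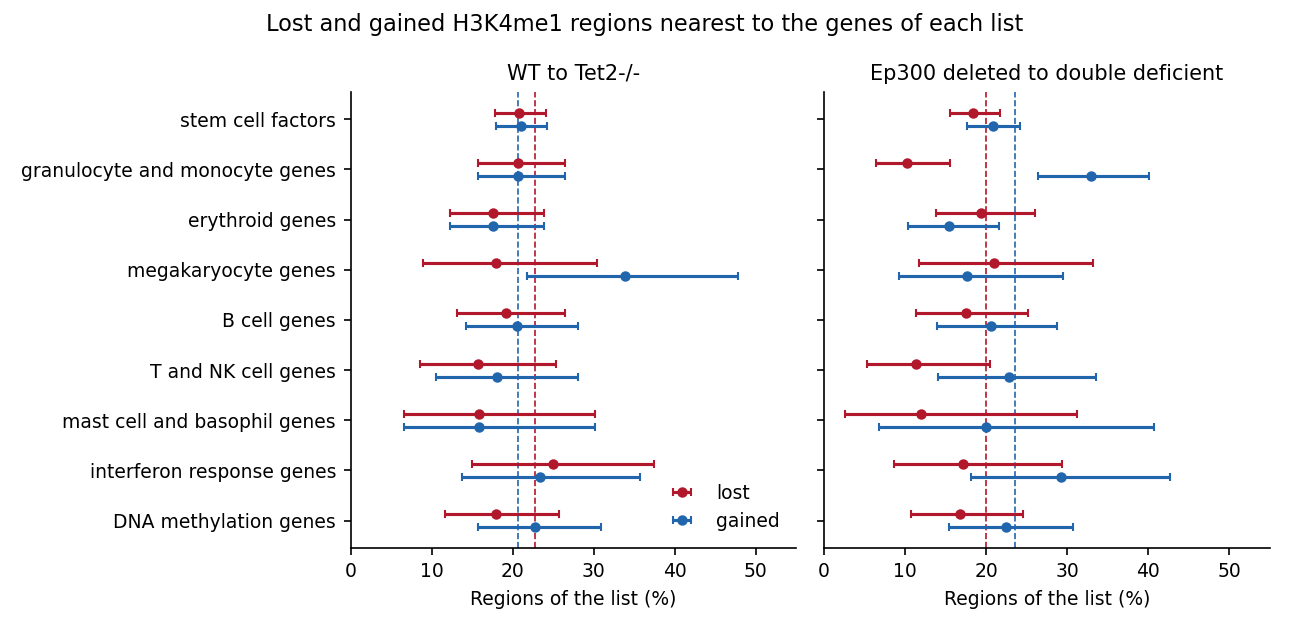
Lost (red) and gained (blue) shares of the H3K4me1 regions nearest to the genes of each list, in percent, for WT to Tet2-/- (left) and Ep300Δ/Δ to Ep300Δ/ΔTet2-/- cells (right); lines are 95% Clopper-Pearson intervals, and dashed lines are the shares of all merged regions. On the left every interval but that of the gains at megakaryocyte genes (33.9%) includes the dashed line of its color, and on the right granulocyte and monocyte genes stand at 10.3% lost and 33% gained.

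The 12 erythroid genes had 32 lost and 32 gained of 182 regions (17.6% each, 12.3 to 23.9). The evenness hid opposite genes. Slc4a1, which encodes the band 3 anion exchanger of red cells, had 4 lost and 1 retained region, with 2 regions acetylated in WT alone, and it also had 4 lost and 1 retained region from Ep300Δ/Δ to Ep300Δ/ΔTet2-/- cells. Slc4a1 had 1 lost region by the nearest start of any gene and no other, and the other 3 lost regions lay 7470 to 10256 bp from its start. Both regions of Alas2, the first enzyme of heme synthesis in erythroid cells, were lost. The only region nearest to Hba-a1, an alpha-globin gene, was lost, and in the other pair Hba-a1 had 1 lost and 1 gained region. Hbb-bt, a beta-globin gene, had 0 lost, 1 gained, and 3 retained regions. Bcl11a, a repressor of fetal globin that is also active in stem and B cells, had 13 lost and 18 gained regions, and Tfrc, the transferrin receptor, had 1 and 3. Bcl11a had 7 lost and 1 gained region by the nearest start of any gene, which turns its direction. The 4 regions of Klf1, an erythroid regulator, were all retained.

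The alpha-globin genes lay in a run of consecutive lost regions that was singled out after its values were seen. All 9 merged regions from chr11:32269369 to 32300777, a span of 31.4 kb that begins beyond the start of Nprl3 and overlaps the genes Hba-x, Hba-a1, Hbq1b, Hba-a2, and Hbq1a, were lost. Introns of Nprl3 hold the upstream enhancers of the alpha-globin genes, and H3K4me1 was called there in both genotypes. From 60 to 15 kb upstream of the Hba-a1 start, WT had 15 H3K4me1 peaks, Tet2-/- 13, Ep300Δ/Δ 14, and Ep300Δ/ΔTet2-/- 13. From 15 kb upstream to 40 kb downstream, WT had 12, Tet2-/- 2, Ep300Δ/Δ 6, and Ep300Δ/ΔTet2-/- 4. The numbers of calls were far apart at the genes and close at the upstream enhancers. That second stretch held 2 H3K27ac peaks in WT, 2 in Ep300Δ/Δ, and 0 in Tet2-/- and in Ep300Δ/ΔTet2-/- cells. Hba-a1 and Hba-a2 are near-identical copies, and the authors dropped reads of low mapping quality, so calls within the gene bodies are uncertain. The fold enrichments of the 9 lost regions ranged from 2.1 to 6.72.

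Both erythroid regions below were lost, were acetylated in WT alone, and had an H3K4me1 peak in Ep300Δ/Δ and none in Ep300Δ/ΔTet2-/- cells, and they are shown for that shared pattern (GRCm38, plus strand, CpG in capitals). The former lies 107 bp from the start of Slc4a1 (fold 4.71) and the latter 1912 bp from the start of Hba-a2 (fold 6.04).
Slc4a1 promoter, lost, chr11:102365596-102365796: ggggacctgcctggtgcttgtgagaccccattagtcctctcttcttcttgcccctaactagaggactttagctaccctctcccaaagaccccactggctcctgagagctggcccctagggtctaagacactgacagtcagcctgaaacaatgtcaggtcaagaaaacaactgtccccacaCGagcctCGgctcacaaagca
Hba-a2 upstream region, lost, chr11:32293962-32294162: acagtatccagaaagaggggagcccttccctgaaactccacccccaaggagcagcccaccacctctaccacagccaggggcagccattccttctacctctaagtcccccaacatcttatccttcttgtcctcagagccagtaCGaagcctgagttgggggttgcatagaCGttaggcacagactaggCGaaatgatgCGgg

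**Figure D5:**
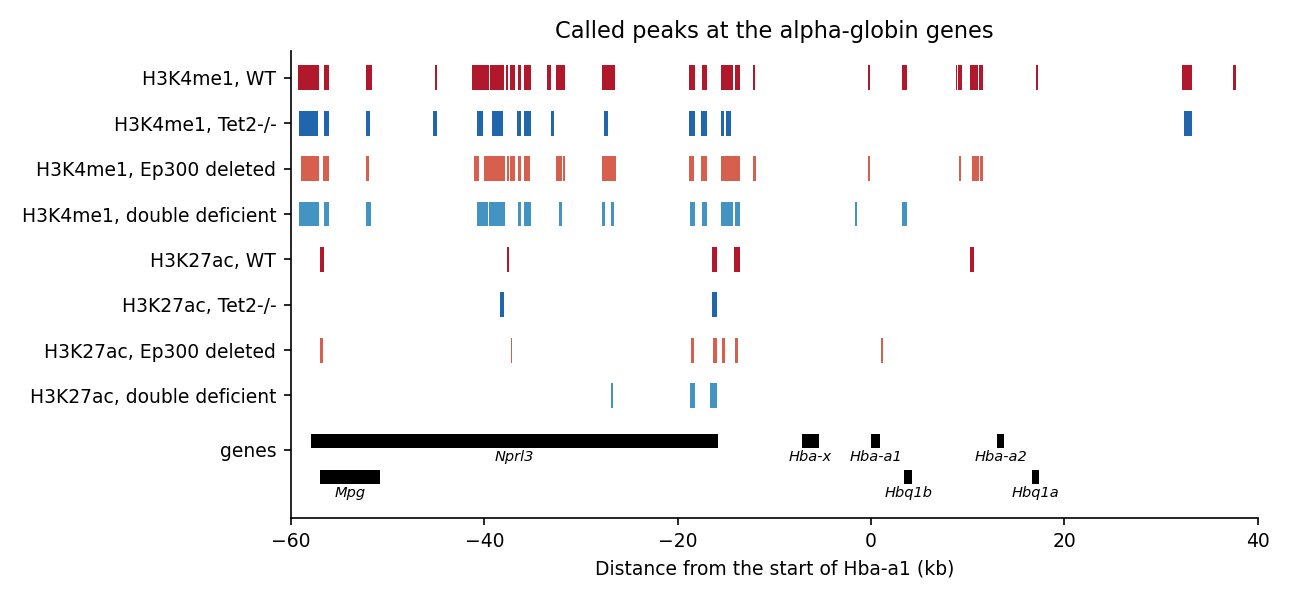
Called H3K4me1 and H3K27ac peaks (bars) of the 4 genotypes by distance in kb from the start of Hba-a1, with protein-coding genes in black below. Upstream of −15 kb the genotypes have 13 to 15 H3K4me1 peaks, and from there to the right WT has 12 and Tet2-/- cells have 2.

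Other lineages had fewer regions. The 8 megakaryocyte genes had 10 lost (17.9%, 8.91 to 30.4) and 19 gained (33.9%, 21.8 to 47.8) of 56 regions. Vwf, the von Willebrand factor, had 3 lost and 5 gained, Pf4, platelet factor 4, 0 and 3, and Itga2b, the integrin CD41, 2 and 3. In the other pair the list had 13 lost and 11 gained regions, so the excess of gains was not found there. B cell genes had 28 lost and 30 gained of 146 regions (19.2% and 20.5%), or 15.7% and 28.6% by the nearest start of any gene. Among them Foxo1, a factor of early B cells that is broadly expressed, had 16 lost and 6 gained (2 and 0 by the nearest start of any gene), Ikzf1, the Ikaros gene, 3 and 12, and Dntt, the terminal transferase of lymphoid precursors, 0 and 5. In the other pair Foxo1 had 9 lost and 6 gained, Ikzf1 7 and 5, and Dntt 2 and 2, so the excess of gains at Ikzf1 and Dntt was not found there. T and NK cell genes had 13 lost and 15 gained of 83 regions (15.7% and 18.1%), or 9.43% and 18.9% by the nearest start of any gene, with Notch1 at 3 and 6 and Gata3 at 5 and 3, or 3 and 3 by the nearest start of any gene. Mast cell and basophil genes had 7 and 7 of 44 regions (15.9% each), or 17.9% and 25% by the nearest start of any gene. Histidine decarboxylase, Hdc, had 3 lost and 3 gained regions of 19.

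Interferon response genes, which bear on the poly(I:C) that all mice received, had 16 lost (25%, 15 to 37.4) and 15 gained (23.4%, 13.8 to 35.7) of 64 regions. Usp18, which removes ISG15 from proteins and damps interferon signaling, had 5 lost and 4 gained, and the 3 regions of Irf7 were retained. Genes of other tissues had 6 regions in all, with 3 lost and 1 gained.

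The genes of DNA methylation had 23 lost (18%, 11.7 to 25.7) and 29 gained (22.7%, 15.7 to 30.9) of 128 regions. Tet1 and Dnmt3a, the latter a de novo DNA methyltransferase, each had 1 lost and 6 gained regions, and Tet3 had 3 of each. In the other pair Tet1 had 6 lost and 3 gained and Dnmt3a 5 of each. Tet2 itself had 14 lost, 11 gained, and 18 retained regions, counted by the nearest coding start, and 6 lost and 2 gained regions by the nearest start of any gene. Over the Tet2 gene body H3K4me1 peaks numbered 8 in WT, 4 in Tet2-/-, 5 in Ep300Δ/Δ, and 7 in Ep300Δ/ΔTet2-/- cells. Peak lists do not show which part of the gene was disrupted, so these calls do not check the genotype. Ep300, which was intact in both WT and Tet2-/- cells, had 2 lost, 5 gained, and 7 retained regions, or 0 lost and 1 gained by the nearest start of any gene.

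Losses and gains also came in stretches. There were 212 runs of 5 or more consecutive lost regions and 191 of gained regions, and 14449 lost and 13697 gained regions stood alone. The longest lost run held 12 regions over 68.4 kb at Ehd3 and Xdh, the xanthine dehydrogenase gene (chr17:73806974-73875387). It had 8 intronic and 3 promoter regions with fold enrichments of 3.07 to 6.92 in WT. Ep300Δ/Δ cells had a peak in 10 of these 12 regions and Ep300Δ/ΔTet2-/- cells in 1, so this stretch had few calls in either Tet2-deficient genotype. The second held 11 regions over 62.1 kb at Plpp1 and Mtrex (chr13:112810138-112872265), with a peak in 7 of them in Ep300Δ/Δ and in 2 in Ep300Δ/ΔTet2-/- cells. Runs of 10 lay at Fntb, a farnesyltransferase subunit (33.3 kb on chromosome 12), upstream of Map3k1 (43.1 kb on chromosome 13), and at Tshz2 and Zfp217 (311 kb on chromosome 2). In the last of these, Ep300Δ/Δ and Ep300Δ/ΔTet2-/- cells each had a peak in 1 of the 10 regions, so calls were few outside WT.

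The longest gained runs held 10 regions each. The first spanned 88.5 kb at Cox10, which acts in heme A synthesis (chr11:64115780-64204238), with fold enrichments of 3.57 to 10.6 in Tet2-/- cells. None of its regions had a peak in Ep300Δ/Δ and 1 had one in Ep300Δ/ΔTet2-/- cells, and none carried H3K27ac. The other spanned 184 kb at Apbb1ip, an adaptor of integrin activation, Pdss1, and Abi1. Runs of 9 lay at Osbpl8 and Bbs10 (141 kb on chromosome 10) and at Enkur and Thnsl1 (58.1 kb on chromosome 2). At Osbpl8 and Bbs10, Ep300Δ/Δ cells had a peak in 4 and Ep300Δ/ΔTet2-/- cells in 5 of the 9 regions, and at Enkur and Thnsl1 in 3 and 5.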

How the data were processed

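Chromatin immunoprecipitation sequencing of H3K4me1, H3K27ac, and H3K4me3 in Lin- cells of 4 genotypes was used, with 1 library each and 12 peak lists, from 5 μg of chromatin with 10 ng of Drosophila spike-in chromatin. Samples of H3 and H3K27me3 (8 of 20) are not analysed here. The authors used cutadapt 1.15 for trimming and BWA 0.7.13 for alignment to mm10, removed duplicates with Picard, filtered on mapping quality, and called peaks against H3 with MACS2 2.1.1.20160309. The deposited narrowPeak columns hold a score, the fold enrichment over H3 at the summit (a ratio), −log10 of the p-value, −log10 of the q-value, and the offset of the summit. Read counts and depth are unknown from these files, and whether the spike-in entered the calls is not given in the sources used here.

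Peaks were merged where they shared at least 1 bp, and groups were taken from the labels. Promoters lay within 3000 bp of a transcript start of GENCODE release 21 for mouse, and genes were assigned by the nearest protein-coding start. CpG and motifs were counted within 100 bp of the summit (pysam 0.24.0, samtools 1.23.1) in the RefSeq GRCm38.p6 genome. Python 3.11.15, numpy 2.4.6, pandas 2.3.3, scipy 1.17.1, and matplotlib 3.10.9 were used. Named were the 5 highest regions by fold enrichment outside promoters, the 5 genes with the most regions in each class with ties, the longest runs, the members of 10 gene lists, and others said to be chosen after their values were seen. The members and lists were chosen with earlier results of these data known. The merging and counting steps were tested on simulated data, where the classes were compared with those from bedtools 2.31.1. Alternatives changed the gap, the q and overlap thresholds, the list sizes, the promoter window, the gene assignment, and the window at the summit. Some named genes and 1 of the leading regions are not reported here.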

Additional observations from a re-analysis of the deposited data

Results flagged for a closer look

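With the lists as deposited, the direction of the balance between losses and gains differed between the pairs of genotypes that differ by Tet2, and this difference was not tested, because each genotype has 1 library. Over all regions, lost minus gained regions came to 2443 from WT to Tet2-/- and to −3943 from Ep300Δ/Δ to Ep300Δ/ΔTet2-/- cells. In the WT and Tet2-/- pair gains were the more numerous with lists of equal size (22759 lost, 28693 gained) or a −log10 q of at least 5 (13953 and 26991), and losses when 500 bp gaps counted as shared (18143 and 16969) or an overlap of 50% was asked for (28433 and 25992). These alternatives were not run for the other pair. At megakaryocyte genes the values were −9 and 2. At interferon response genes they were 1 and −7, and at genes of other tissues 2 and −1.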

How the results depend on the processing

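No paired analysis was possible because the labels give only replicate 1 in each group, and no library could be left out. When a peak of the other list within 500 bp counted as shared, 18143 regions were lost. Promoters then held 38.7% of lost and 32.2% of gained regions, H3K27ac was called in WT in 8.04% of lost and 4.11% of gained and in Tet2-/- in 5.68% of lost regions, and 20.6% of gained regions had a peak in Ep300Δ/ΔTet2-/- and not in Ep300Δ/Δ cells. With −log10 q of at least 5, 13953 regions were lost, promoters held 43.5% of lost and 38.3% of gained regions, H3K27ac was in WT in 12.6% and 8.11% and in Tet2-/- in 7.8% and 8.14%, and 17.6% of lost regions had a peak in Ep300Δ/Δ alone. With lists of equal size, promoters held 34.8% of gained regions, H3K27ac was in WT in 9.59% of lost and 5.12% of gained and in Tet2-/- in 5.41% of gained regions, and 16.5% of lost regions had a peak in Ep300Δ/Δ alone. In the upper part of each list by fold, 7994 were lost and 8043 gained, promoters held 32.4% of gained regions, H3K27ac was in WT in 11.4% of lost and 5.35% of gained and in Tet2-/- in 5.83% of gained regions, 18% of lost regions were in Ep300Δ/Δ alone, and 22% of gained regions were in Ep300Δ/ΔTet2-/- alone. Promoters held 23.6% of lost and 18.5% of gained regions within 1000 bp, and 33.1% and 26.9% by protein-coding starts. Of alternatives chosen after seeing the data, placing by the summit gave 39.1% and 33%, and H3K27ac lists of equal size gave 7.66% and 4.07% in WT. A q below 0.05 gave 26914 lost and 25696 gained regions. Lost regions lay at promoters more often than gained ones under each of these alternatives that gave both values. The causes of these shifts were not tested. Of the main summary values 26 of 62 alternatives moved less than the interval or the 1.5-fold limit, and of the others 29 of 37. A call is present or absent at a threshold, so a lost region may hold signal below it.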
